A study of Mus musculus with 1 sample.

Results

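The genes described here are 10 genes of the TGF-beta superfamily, measured by droplet-based single-cell RNA sequencing in the mouse adrenal medulla. They are the inhibin and activin subunit genes *Inha*, *Inhba* and *Inhbb*, the bone morphogenetic protein (BMP) genes *Bmp2*, *Bmp4* and *Bmp6*, the TGF-beta genes *Tgfb1*, *Tgfb2* and *Tgfb3*, and *Fst*, which encodes the antagonist follistatin. They were matched by symbol, as 10 of the 32285 genes in the count matrix, and had been chosen with earlier results of these data known. All 10 had a unique molecular identifier (UMI, a tag that marks 1 captured transcript molecule) in at least 3 cells. The study examined stem cells of the postnatal adrenal medulla, and its library held cells of the wild type medulla at postnatal day 15, pooled from the 10 adrenals of 5 mice of mixed sex. Most of the cortex had been trimmed away by hand before digestion. Because there was 1 library, there were no replicates and no test between samples was possible, and every interval below is an exact 95% interval that covers counting error only.

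Ligands of this superfamily are secreted dimers that bind pairs of type I and type II receptors and act through SMAD transcription factors. Activins are dimers of inhibin beta subunits, whereas inhibins combine a beta subunit with the alpha subunit encoded by *Inha* and oppose activin. Follistatin binds activin and keeps it from its receptors, and TGF-beta is secreted in a latent complex from which it must be released. In the adrenal gland, inhibin alpha is known as a product of the steroid-making cortex, and in mice that lack it, adrenocortical tumours arise after removal of the gonads.

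All 10 genes are protein-coding. On the mm10 assembly, *Inha* lies at chr1:75507077-75510366 on the plus strand, *Inhbb* at chr1:119415465-119422248 and *Tgfb2* at chr1:186622792-186705989, both on the minus strand. *Bmp2* lies at chr2:133552159-133562885 and *Tgfb1* at chr7:25687002-25705077, both on the plus strand. *Tgfb3* lies on the minus strand at chr12:86056745-86079041. Chromosome 13 holds *Inhba* at chr13:16011851-16031621 and *Bmp6* at chr13:38345107-38500302 on the plus strand, and *Fst* at chr13:114452290-114458951 on the minus strand. *Bmp4* lies at chr14:46383520-46390669 on the minus strand. No annotated gene overlapped any of the 10 on its own strand.

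Of 11214 barcodes, 10139 passed the quality limits, with a median of 3567 UMIs. They were grouped without using the 10 genes or the other genes of the pathway, and 9445 cells fell into 16 clusters named from marker genes. The 6 classes were 2190 chromaffin-like cells (the catecholamine-secreting cells of the medulla), 179 sustentacular-like cells (glia-like support cells), 3719 cortex-like, 2149 endothelial-like, 702 immune-like and 89 fibroblast-like cells. A further cluster of 417 cells carried chromaffin and sustentacular markers together and was kept out of the classes. The other 694 cells were left out, 501 of them in clusters with markers of 2 cell types. A level below is the number of UMIs of a gene per 1000000 UMIs of a group of cells (CPM). Because reads come from the 3′ end and are not comparable between genes, levels are compared between groups for the same gene and not between genes.

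Some classes carried markers of other cells, which bears on genes with few UMIs. The 89 fibroblast-like cells held endothelial markers at a summed level of 3516 CPM, which was 51.5% of their level in endothelial-like cells. Their fibroblast markers were at 3307 CPM. Of the 89 cells, 49 had at least 2 UMIs of endothelial markers. At least 2 UMIs of markers of mural cells, the cells that wrap small vessels, were found in 46 of them. Mural cells were not a class here. The sustentacular-like cells had a median of 1149 UMIs, below the library median of 3567, and held fibroblast markers at a summed level of 2180 CPM with *Pdgfra*, *Dcn* and *Lum* at 0. They also held chromaffin markers at 2871 CPM, which was 3.67% of the level of these markers in chromaffin-like cells. Their sustentacular markers were at 5100 CPM. Their own defining marker *Cdh19* was among their 10 leading genes, and 6 of the 7 sustentacular markers were found in at least 50% of the cells. The immune-like cells held chromaffin markers at 4730 CPM, or 6.05% of their chromaffin-like level. The fibroblast-like cells held chromaffin markers at 2653 CPM, or 3.39% of that level. They held cortex markers at 2182 CPM, or 8.83% of their cortex-like level. The library labelled medulla was thus a mixture, and cortex-like cells were its most numerous class. Where it changes a value, the level without the cells that carried markers of another class (788 in all) is given as well, a choice made after seeing the data. Such a cell had at least 2 UMIs of another class's markers, or a set share of its UMIs for cortex and chromaffin markers. Fibroblast markers were not counted against sustentacular-like cells, nor sustentacular markers, at 422 CPM in the fibroblast-like class, against fibroblast-like cells. Mural markers were not counted against any class.

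The 10 genes were spread over the classes rather than gathered in 1 of them. *Inha* had its highest level in the cortex-like class, *Bmp2*, *Tgfb1* and *Inhbb* in the endothelial-like class, *Tgfb2* and *Fst* in the sustentacular-like class, *Tgfb3* in the chromaffin-like class and *Bmp4* and *Bmp6* in the fibroblast-like class. *Inhba* had 19 UMIs in all cells, too few to place it. The ratio of the highest class to the next was 1.07 for *Inhbb* (0.406 to 4.03) and 1.68 for *Tgfb3* (0.566 to 8.19), and neither difference exceeded counting error.

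A gene was counted for a class when its level there was at least 4 times the mean of the other 5 classes, after 10 CPM were added to both. In the sustentacular-like class 2 of the 10 genes passed, *Tgfb2* and *Fst*, where 1.69% of all 18589 genes did. In the cortex-like class *Inha* passed (1.09% of all genes), in the endothelial-like class *Bmp2* (0.807%) and in the fibroblast-like class *Bmp4* (0.769%). *Inha* did not pass under stricter quality limits (1000 genes and 10% mitochondrial UMIs) or against the highest of the other classes, and *Bmp4* did not at a clustering resolution of 0.2 or under the stricter limits, where no fibroblast-like cluster formed. *Tgfb2* and *Fst* did not pass under the stricter limits, which left no sustentacular-like cluster. *Bmp6* passed in the fibroblast-like class with a mean over cells, with 1 CPM added instead of 10 and without the cells that carried markers of another class. None of the 10 passed in the chromaffin-like class, where 1.98% of all genes did, or in the immune-like class, where 1.90% did. The median fold of the 10 genes ran from 0.552 in the immune-like to 1.04 in the fibroblast-like class, whereas that of all genes was 0.933 and 0.980 in the same classes. With counts this small, a single gene sets each share. The 10 genes were also chosen with earlier results of these data known.

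**Figure D1:**
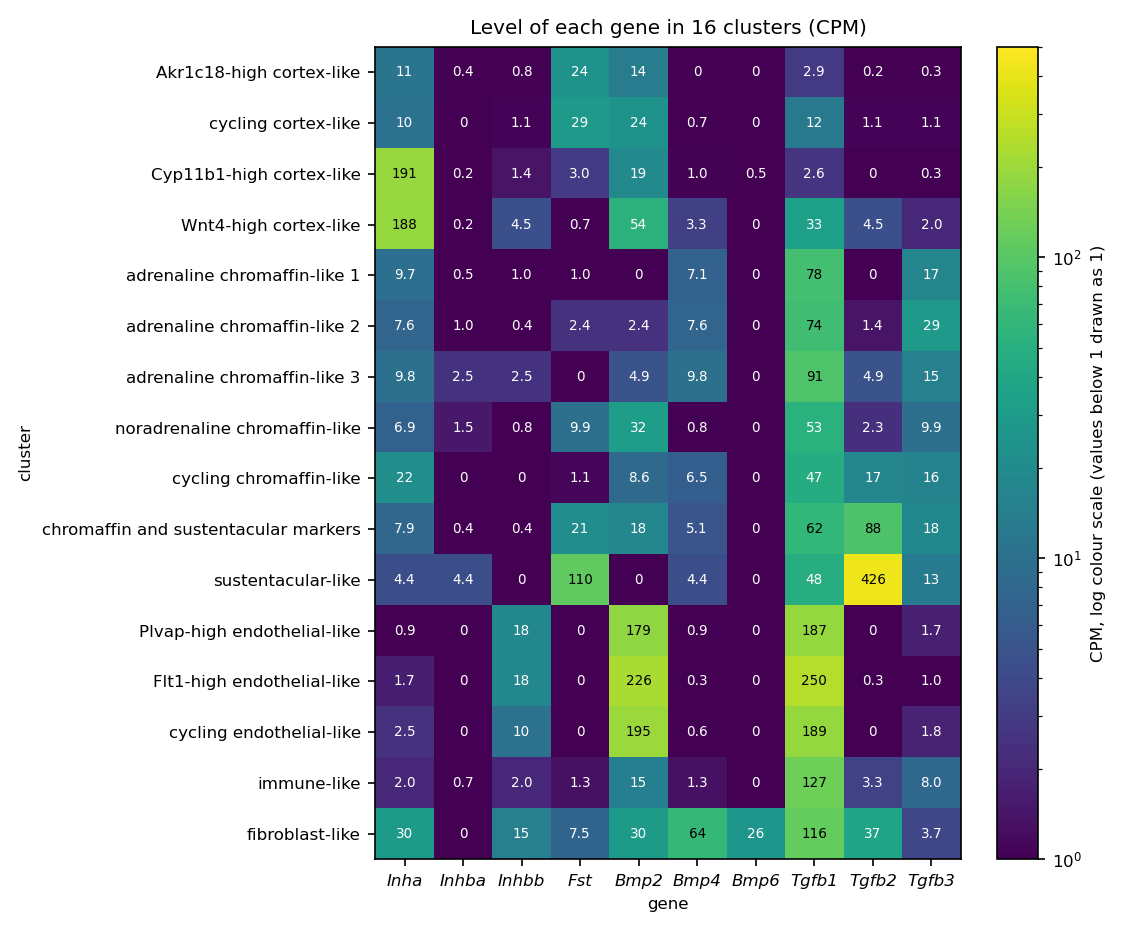
Level of each of the 10 genes (columns) in the 16 clusters (rows) in CPM, printed in each cell and shown on a log colour scale. *Inha* stands out in the *Cyp11b1*-high and *Wnt4*-high cortex-like clusters at 191 and 188, *Tgfb2* and *Fst* in the sustentacular-like cluster at 426 and 110, and *Bmp2* and *Tgfb1* in the 3 endothelial-like clusters.

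*Inha*, the subunit that makes a dimer an inhibin, was found mainly in the cortex-like cells, which held 90.7% of its 2512 UMIs. Its level there was 92.6 CPM (88.9 to 96.5), against 9.38 (7.55 to 11.5) in chromaffin-like, 1.75 (0.837 to 3.21) in endothelial-like and 1.99 (0.410 to 5.81) in immune-like cells. The fibroblast-like cells came next, at 29.9 (12.9 to 58.9) from 8 UMIs, of which 1 was left without the cells that carried markers of another class. A UMI of *Inha* was found in 27.7% of cortex-like cells and in 0.285% of immune-like cells, at median depths of 5350 and 1678.5 UMIs. When every cell with at least 1000 UMIs was thinned to 1000 and the shallower cells were left out, the shares were 7.48% and 0%.

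Within the cortex-like class, *Inha* separated the clusters. It reached 191 CPM (180 to 203) in the *Cyp11b1*-high cluster, named for the enzyme that completes corticosterone synthesis in the zona fasciculata, and 188 (177 to 200) in the *Wnt4*-high cluster, named for a ligand gene of the outermost cortex. These 2 levels did not differ beyond counting error, with a ratio of 1.02 (0.935 to 1.11). In the *Akr1c18*-high cluster, in which the markers of the innermost cortex or X-zone *Akr1c18*, *Thrb* and *Pik3c2g* were found in 93.8%, 65.5% and 50.9% of cells, *Inha* was at 10.8 (8.89 to 13.0). The *Cyp11b1*-high level was 17.7 times this (14.6 to 21.7). The noradrenaline and adrenaline chromaffin-like clusters together had *Inha* at 8.08, or 0.749 times the *Akr1c18*-high level (0.548 to 1.02). These 2 levels did not differ beyond counting error. The cycling cortex-like cells, at 10.2 (6.80 to 14.6), resembled the *Akr1c18*-high cells, and their ratio of 0.942 had an interval from 0.603 to 1.43. *Inha* was detected in 51.0%, 53.5% and 6.24% of the cells of the 3 non-cycling clusters in this order, or 15.1%, 14.3% and 1.24% after thinning. Without the cells that carried markers of another class, the *Wnt4*-high cluster kept 493 of its 825 cells and had *Inha* at 202 CPM (185 to 220).

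*Fst* had the reverse order in the cortex. Its level was 23.7 CPM (20.8 to 26.8) in the *Akr1c18*-high cluster and 29.1 (23.2 to 36.0) in the cycling cortex-like cells, but 2.95 (1.72 to 4.72) in the *Cyp11b1*-high and 0.727 (0.198 to 1.86) in the *Wnt4*-high cluster. The *Akr1c18*-high level was 8.03 times the *Cyp11b1*-high level (4.91 to 14.0) and 32.6 times the *Wnt4*-high level (12.6 to 121). Thus the gene of the inhibin subunit and the gene of the activin antagonist were each high where the other was low. In the 3719 cortex-like cells, *Inha* was detected in 1030, *Fst* in 279 and both genes in 34. This count pools clusters that differ in both genes, and no expected number was computed. It therefore does not show whether the genes exclude each other within a cluster. With the *Cyp11b1*-high and *Wnt4*-high clusters pooled, the *Akr1c18*-high level of *Fst* was 12.7 times theirs, but 4.59 times under stricter quality limits (1000 genes and 10% mitochondrial UMIs), and 20.9 times without the doublets called by Scrublet.

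Outside the cortex, *Fst* was highest in the sustentacular-like cells, at 110 CPM (71.1 to 162) from 25 of its 517 UMIs. This was 7.68 times the level of the whole cortex-like class (4.90 to 11.5). It was detected in 11.2% of sustentacular-like cells (11.4% after thinning, median depth 1149 UMIs) and in 0 of 2149 endothelial-like cells, which have a median of 2012 UMIs, and a count of 0 there allows a share of cells with a UMI of up to 0.140%, which is no limit on the share expressing the gene. The cluster with chromaffin and sustentacular markers had 20.9 (15.6 to 27.3). Noradrenaline chromaffin-like cells are the cluster with little *Pnmt*, the gene of the enzyme that converts noradrenaline to adrenaline, found in 15.5% of them. They had 9.95 CPM of *Fst* (5.30 to 17.0), and the 3 adrenaline chromaffin-like clusters together had 1.90 (1.04 to 3.19). The ratio of these was 5.23 (2.26 to 12), resting on 13 and 14 UMIs. The sustentacular markers differed in the same direction. They were at 1.08% of their sustentacular-like level in the noradrenaline cluster, and at 0.160%, 0.110% and 0.338% in adrenaline clusters 1, 2 and 3. Whether the difference in *Fst* goes beyond that of these markers was not tested.

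The genes of the beta subunits with which the product of *Inha* could pair had few UMIs, which does not measure their amount relative to *Inha*. *Inhbb*, the beta B subunit of inhibin B and activin B, had 172 UMIs in all, and its level was 16.1 CPM (12.9 to 19.7) in endothelial-like cells and 14.9 (4.07 to 38.3) in fibroblast-like cells. In the cortex-like class it was 1.79 (1.30 to 2.40). Among the cortex-like clusters *Inhbb* was highest in the *Wnt4*-high cells, at 4.54 (2.94 to 6.70), which was 5.94 times the *Akr1c18*-high level (2.60 to 15.2). The *Wnt4*-high cluster also held endothelial markers at 12.2% of their level in endothelial-like cells, against 0.277% in the *Akr1c18*-high cluster, and without the cells that carried such markers *Inhbb* was at 3.02 (1.30 to 5.95) and 0.689 (0.277 to 1.42) in these clusters. *Inhba*, the beta A subunit, had 9 UMIs in chromaffin-like, 6 in cortex-like, 1 in sustentacular-like and 1 in immune-like cells, and none in endothelial-like or fibroblast-like cells.

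**Figure D2:**
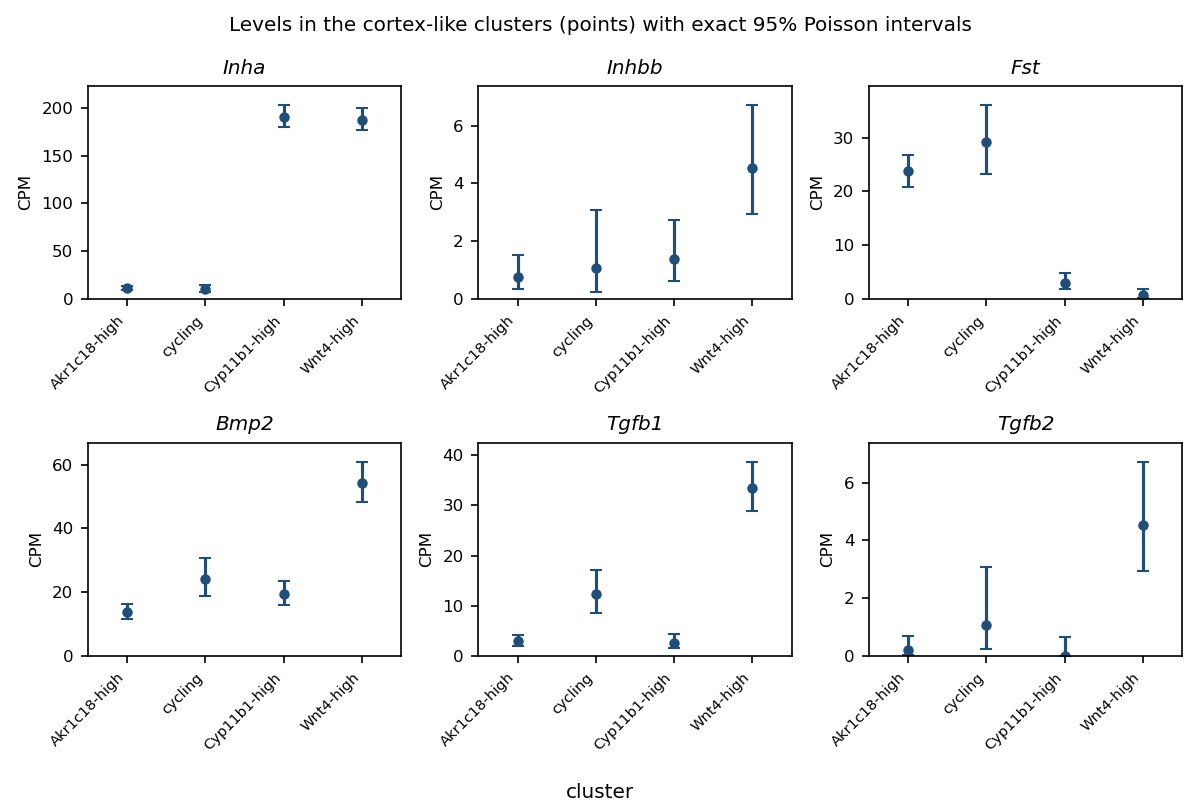
Levels of 6 genes in the 4 cortex-like clusters in CPM, each panel with its own linear axis from 0. Points are levels and bars are exact 95% Poisson intervals. *Inha* is high in the *Cyp11b1*-high and *Wnt4*-high clusters, *Fst* in the *Akr1c18*-high and cycling clusters, and *Inhbb*, *Bmp2*, *Tgfb1* and *Tgfb2* are highest in the *Wnt4*-high cluster, where *Tgfb1* is at 1.51 instead of 33.4 without the cells that carried markers of another class.

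*Bmp2*, a ligand of the BMP branch, was mainly a gene of the endothelial-like cells, which held 55.8% of its 2133 UMIs at 208 CPM (196 to 220). The cortex-like cells had 25.4 (23.4 to 27.4), the chromaffin-like cells 6.67 (5.14 to 8.52), and none of 227472 UMIs of the sustentacular-like cells came from *Bmp2*, which allows up to 13.2 CPM. The 3 endothelial-like clusters were close to each other. The *Flt1*-high cluster had 226 (209 to 244), the cycling cluster 195 (174 to 218) and the *Plvap*-high cluster 179 (156 to 205), and the ratio of the first to the last was 1.26 (1.08 to 1.48). *Bmp2* was detected in 30.4% of endothelial-like cells, or 16% after thinning, at a median depth of 2012 UMIs, and in 2.28% of immune-like cells, or 0.810% after thinning, at 1678.5.

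Chromaffin-like cells differed in *Bmp2* by their type. The noradrenaline cluster had 32.1 CPM (23.2 to 43.4) from 42 UMIs, and the adrenaline clusters together had 1.90 (1.04 to 3.19) from 14 UMIs, so that the first level was 16.9 times the second (9.04 to 33.5). A UMI was present in 8.27% of noradrenaline cells (5.72 to 11.5) and 0.781% of adrenaline cells (0.416 to 1.33), at median depths of 2635 and 3165 UMIs. After thinning it was found in 1.93% of noradrenaline cells and in 0%, 0.542% and 0.855% of the cells of adrenaline clusters 1, 2 and 3. The cluster with chromaffin and sustentacular markers had *Bmp2* at 17.7 CPM (12.9 to 23.7) from 45 UMIs. There it was found in 9.11% of cells, or 2.17% after thinning, at a median depth of 5126 UMIs. The endothelial markers were at 0.325% of their endothelial level in the noradrenaline cluster, whereas *Bmp2* was at 15.5% of its own.

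In the non-cycling cortex-like clusters *Bmp2* was graded, with 54.3 CPM (48.3 to 60.8) in the *Wnt4*-high, 19.4 (16 to 23.4) in the *Cyp11b1*-high and 13.7 (11.6 to 16.2) in the *Akr1c18*-high cluster. The cycling cortex-like cells, which also had high *Akr1c18*, had *Bmp2* at 24.2 (18.8 to 30.6), 1.76 times the *Akr1c18*-high level (1.30 to 2.36). The *Wnt4*-high level was 3.95 times the *Akr1c18*-high level (3.23 to 4.85). In the *Wnt4*-high cells *Bmp2* was at 26.1% of its endothelial level, beside 12.2% for the endothelial markers. Without the cells that carried markers of another class the *Wnt4*-high level was 41.1 (33.8 to 49.6), and the *Cyp11b1*-high and *Akr1c18*-high levels were 19.2 (15.6 to 23.4) and 13.4 (11.2 to 15.8). The order of these non-cycling clusters held.

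*Bmp4*, another BMP ligand, was found in few cells. Its level was 63.5 CPM (37.0 to 102) in fibroblast-like cells, 6.57 (5.05 to 8.40) in chromaffin-like, 1.06 (0.691 to 1.55) in cortex-like and 0.524 (0.108 to 1.53) in endothelial-like cells. The fibroblast-like value rests on 17 of its 136 UMIs, in 15 cells. Of these 15 cells, 11 had at least 2 UMIs of endothelial markers and 9 had at least 2 of mural markers. *Bmp4* was detected in 16.9% of fibroblast-like cells (8.57% after thinning, median depth 1989 UMIs) and in 0.140% of endothelial-like cells (0.0536% after thinning, median depth 2012 UMIs).

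The chromaffin types differed in *Bmp4* the opposite way from *Bmp2*. The adrenaline clusters had 7.13, 7.62 and 9.85 CPM and 7.61 together (5.75 to 9.89), from 56 UMIs. The noradrenaline cluster had 1 UMI, or 0.765 (0.0194 to 4.26), and the ratio of noradrenaline to adrenaline was 0.101 (0.00250 to 0.583). So the 2 BMP genes were each found at a higher level in a different type of chromaffin-like cell.

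*Bmp6* had 10 UMIs in 10 cells, of which 7 were fibroblast-like. The level there was 26.2 CPM (10.5 to 53.9), and the only other class with *Bmp6* was the cortex-like class, with 3 UMIs, all in *Cyp11b1*-high cells. Of the 7 fibroblast-like cells, 2 had at least 2 UMIs of endothelial markers, 2 had at least 2 of mural markers, and 2 also had *Bmp4*. In the 34 fibroblast-like cells without markers of another class (sustentacular and mural markers not counted), *Bmp4* and *Bmp6* were both at 78.0 (21.3 to 200), from 4 UMIs each.

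*Tgfb1* was the most widely found of the TGF-beta genes, with 2846 UMIs in 2035 cells. Its level was 220 CPM (208 to 232) in endothelial-like cells, 127 (109 to 146) in immune-like, 116 (78.7 to 164) in fibroblast-like, 70.3 (65.1 to 75.8) in chromaffin-like, 48.4 (24.1 to 86.5) in sustentacular-like and 10.7 (9.48 to 12.1) in cortex-like cells. In this order the immune-like and fibroblast-like levels overlapped, as did the chromaffin-like and sustentacular-like levels. The fibroblast-like level was 58.5 (12.1 to 171) without the cells that carried markers of another class. The endothelial-like level was 1.74 times the immune-like one (1.49 to 2.03). *Tgfb1* was detected in 37.5% of endothelial-like, 24.4% of chromaffin-like and 5.16% of cortex-like cells, and after thinning in 18.4%, 6.97% and 0.565%, at median depths of 2012, 3117.5 and 5350 UMIs.

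Within the classes, *Tgfb1* was 1.33 times higher in *Flt1*-high than in *Plvap*-high endothelial-like cells (1.15 to 1.56). The noradrenaline chromaffin-like cells had 52.8 CPM (41.1 to 66.8) and the adrenaline cells 76.3 (70.1 to 82.9), a ratio of 0.692 (0.531 to 0.890). In the cortex-like class the *Wnt4*-high cluster had 33.4 (28.8 to 38.6), against 2.60 (1.46 to 4.29) in the *Cyp11b1*-high and 2.86 (1.93 to 4.09) in the *Akr1c18*-high cluster. In the *Wnt4*-high cells *Tgfb1* was at 15.2% of its endothelial level and the endothelial markers were at 12.2% of theirs. Without the cells that carried markers of another class it was at 1.51 (0.411 to 3.86) there, and the 3 non-cycling clusters then overlapped. The level of the whole cortex-like class was then 2.67.

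*Tgfb2* had the sharpest distribution of the TGF-beta genes. Its level in sustentacular-like cells was 426 CPM (346 to 520), from 97 of its 454 UMIs. The next class was the fibroblast-like one, at 37.4 (17.9 to 68.7), then immune-like at 3.31 (1.08 to 7.73), chromaffin-like at 2.92 (1.94 to 4.22), cortex-like at 1.22 (0.823 to 1.74) and endothelial-like at 0.175 (0.00442 to 0.973). The noradrenaline and adrenaline clusters together held 12 UMIs, and the sustentacular-like level was 308 times theirs (168 to 616). *Tgfb2* was detected in 37.4% of sustentacular-like cells (30.3 to 45; 26.8% after thinning) and in 0.0465% of endothelial-like cells (0.0536% after thinning), at median depths of 1149 and 2012 UMIs. With the limits of 1000 genes and 10% mitochondrial UMIs, no sustentacular-like cluster formed, so these values rest on cells of low depth.

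The cluster with chromaffin and sustentacular markers held 223 UMIs of *Tgfb2* at 87.8 CPM (76.6 to 100), and the sustentacular-like level was 4.86 times this (3.79 to 6.19). This was 20.6% of the sustentacular-like level, beside 16.6% for the summed sustentacular markers in the same cells. The cycling chromaffin-like cells had 17.2 (9.84 to 27.9), at 4.04% of the sustentacular-like level beside 2.91% for the markers, and 1.73 (0.0438 to 9.64) without the cells that carried markers of another class. In adrenaline cluster 2 the percentage for *Tgfb2* was 2.99 times that for the markers (1.20 to 6.16), from 7 UMIs, and in noradrenaline cells it was 0.498 times (0.103 to 1.46), from 3, while adrenaline cluster 1 had no UMI.

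Of the 337 UMIs of *Tgfb3*, 62.9% were in the chromaffin-like cells. Its level was 22.1 CPM (19.2 to 25.3) there, 13.2 (2.72 to 38.5) in sustentacular-like cells from 3 UMIs, 7.95 (4.11 to 13.9) in immune-like, 1.40 (0.603 to 2.75) in endothelial-like and 0.773 (0.465 to 1.21) in cortex-like cells. It was detected in 8.63% of chromaffin-like and 0.372% of endothelial-like cells, or 1.72% and 0.107% after thinning, at median depths of 3117.5 and 2012 UMIs. The thinned shares of the sustentacular-like and fibroblast-like cells were 1.63% and 1.43%. These classes held 3 and 1 UMIs of *Tgfb3*, too few to compare with the chromaffin-like share. Adrenaline cells had 25 (21.5 to 28.9) and noradrenaline cells 9.95 (5.30 to 17.0), a ratio of noradrenaline to adrenaline of 0.398 (0.208 to 0.697). Adrenaline cluster 2, the deepest of them, had 29.1 (24.5 to 34.2), and cluster 1 had 16.8 (11.6 to 23.6).

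**Figure D3:**
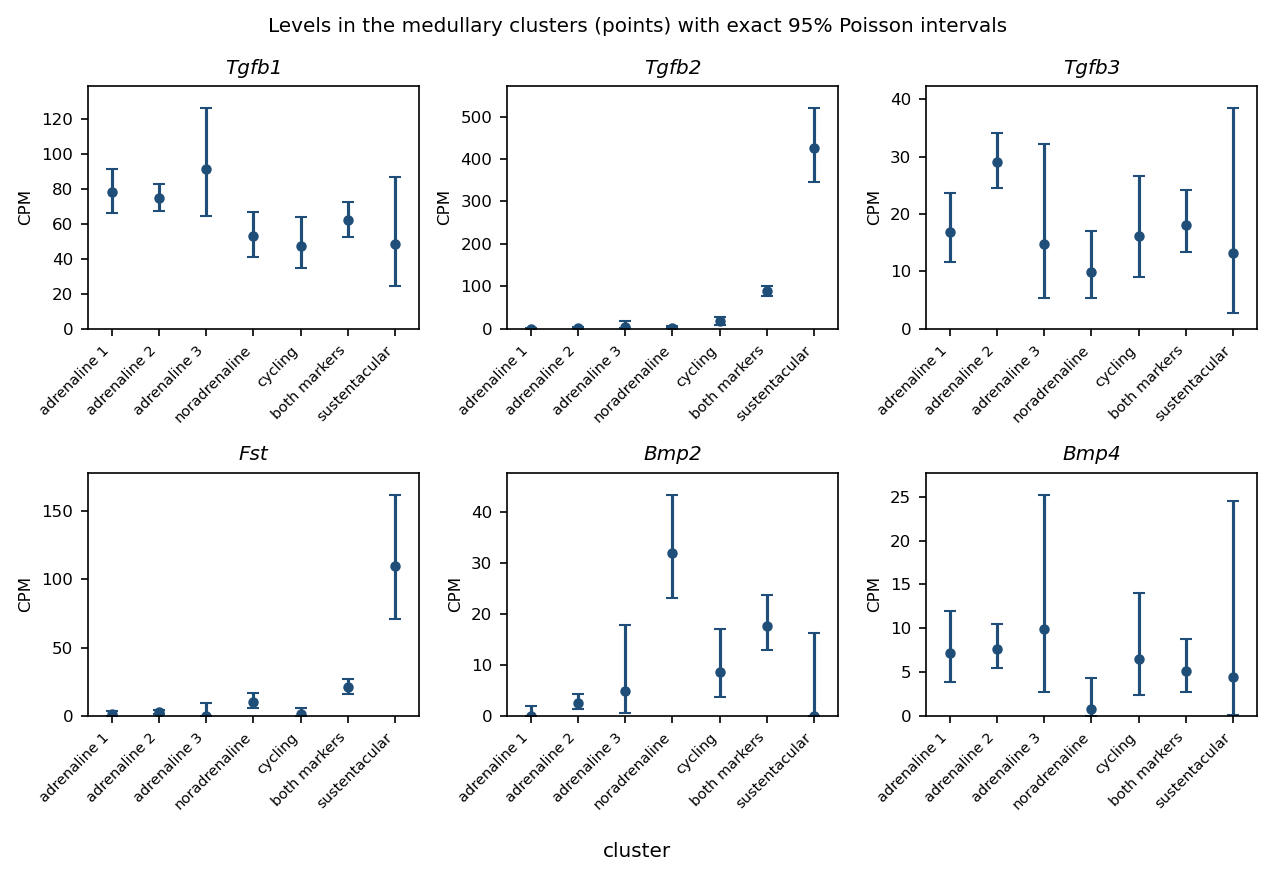
Levels of 6 genes in the 7 medullary clusters in CPM, each panel with its own linear axis from 0. Points are levels, bars are exact 95% Poisson intervals, and "both markers" is the cluster with chromaffin and sustentacular markers. *Tgfb2* and *Fst* are highest in sustentacular-like cells, *Bmp2* in noradrenaline cells, while *Bmp4* and *Tgfb3* are lower in noradrenaline than in the pooled adrenaline cells.

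RNA released from broken cells can enter other droplets, so each gene was compared with the markers of the class where it was highest. For each cluster outside that class, the level of the gene as a percentage of its level in the class was set beside the same percentage for the summed markers. The interval of such a quotient covers the counting error of the gene's UMIs outside the class only, and takes the other levels as exact. It leaves out the spread between single markers, which can be wider. The markers were picked for their class, so a less specific gene can exceed them whatever the source of its RNA, which was not tested. *Inha* in chromaffin-like cells exceeded the cortex markers, being at 10.4% of its cortex level in adrenaline cluster 1, where the markers were at 0.883%, which is 11.8 times as much (7.12 to 18.5). In adrenaline cluster 2 this quotient was 12.6 (8.94 to 17.3) and in the noradrenaline cluster 9.5 (4.34 to 18.0). In endothelial-like cells it was 0.860 (0.413 to 1.58), which was not above the cortex markers beyond counting error. Single cortex markers ran from 0.341% to 4.67% in adrenaline cluster 1. In adrenaline cluster 3 the highest single marker was at 8.78%, beside 10.6% for *Inha*. *Inha* itself differs 17.7-fold between cortex-like clusters, so a quotient against the markers of the whole class depends on which cortex cells gave the RNA, and this was not tested.

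*Tgfb1* in chromaffin-like cells exceeded the endothelial markers 56.9 times (52.6 to 61.3), and in immune-like cells 5.44 times (4.69 to 6.26). In the fibroblast-like cells its quotient was 1.02 (0.695 to 1.45) and in the *Wnt4*-high cells 1.25 (1.07 to 1.44). For *Tgfb2* the quotient against the sustentacular markers was 1.06 (0.507 to 1.95) in fibroblast-like and 0.988 (0.667 to 1.41) in cortex-like cells. The cortex-like value pools clusters that differed, with 2.05 (1.33 to 3.02) in the *Wnt4*-high cluster, which held 25 of the 30 UMIs, 0.234 (0.0284 to 0.847) in the *Akr1c18*-high cluster and no UMI in the *Cyp11b1*-high cluster. For *Bmp2* it was 47.6 (34.3 to 64.3) in noradrenaline cells, 23.9 (20.1 to 28.1) in *Akr1c18*-high cells and 0.662 (0.415 to 1.00) in immune-like cells. The *Akr1c18*-high quotient was 3.23 with clusters drawn at a resolution of 0.2 and 46.7 without the cells that carried markers of another class. *Fst* in the *Akr1c18*-high cluster exceeded the sustentacular markers 113 times (99.2 to 128), an interval that leaves out the error of its 25 sustentacular-like UMIs. It was at 21.5% of its sustentacular-like level (14.3 to 33.9), beside 0.191% for the markers. The sustentacular-like class held 4.84% of the 517 UMIs of *Fst*, and the cortex-like class held 352 of them. This quotient therefore cannot decide where the *Fst* RNA came from, and cortex-like cells as a source of *Fst* RNA in other clusters were not tested.

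**Figure D4:**
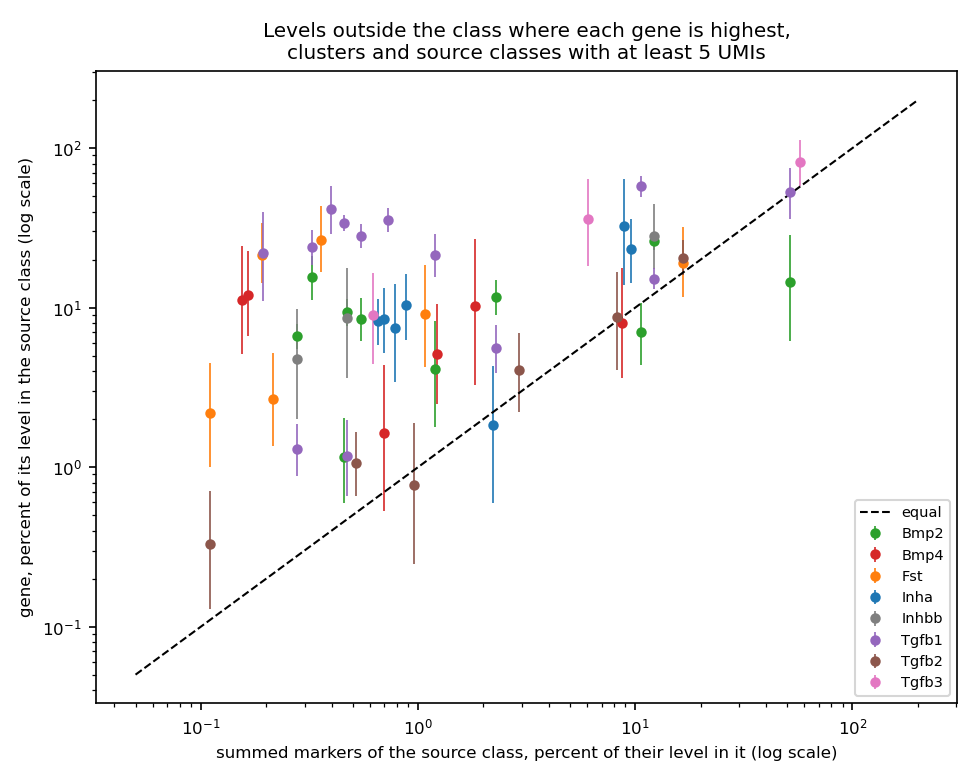
Level of each gene in clusters outside the class where it was highest, as a percentage of its level in that class (y axis, log scale), against the same percentage for the summed markers of that class (x axis, log scale). Bars are exact conditional 95% intervals of the ratio to the level in that class, and the dashed line marks equal percentages. Points are clusters with at least 5 UMIs of a gene that also had at least 5 in its highest class, which leaves out *Inhba*. Of the 54 points, 49 lie above the line, 43 of them with their whole interval. The markers were picked for their classes, and clusters with fewer than 5 UMIs are not drawn, which both favour points above the line. The same count over all genes was not made, so these counts are no result about these genes.

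The pathway lists held 91 other genes, of which 70 had a UMI in at least 3 cells and 14 had no UMI at all. By the 4-fold limit used above, 13 passed in a class, 4 in the sustentacular-like class (1.69% of all genes), 4 in the fibroblast-like (0.769%), 2 each in the cortex-like (1.09%) and immune-like (1.90%), 1 in the endothelial-like (0.807%) and 0 in the chromaffin-like (1.98%). The lists were receptors, co-receptors, SMADs, secreted antagonists, genes of the latent complex and its activation, target genes and other ligands.

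Of the 7 type I receptor genes, *Tgfbr1*, the signalling receptor for TGF-beta, passed in immune-like cells at 227 CPM (203 to 252), whereas its level in the other classes ran from 20.5 to 31.8. *Bmpr1a*, a receptor for BMP2 and BMP4, was at 110 (71.1 to 162) in sustentacular-like, 50.6 (46.2 to 55.3) in chromaffin-like and 47.4 (44.8 to 50.3) in cortex-like cells, but at 1.22 (0.491 to 2.52) in the endothelial-like cells that had the most *Bmp2*. *Acvrl1*, the endothelial type I receptor for BMP9 and BMP10, was at 59.5 (53.4 to 66.2) in endothelial-like and 0.626 (0.230 to 1.36) in chromaffin-like cells. *Acvr1c*, which encodes the receptor ALK7, was at 16.3 (14.8 to 18.0) in cortex-like cells from 402 UMIs, and the chromaffin-like class came next in UMIs with 4.

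None of the 5 type II receptor genes passed the limit. *Tgfbr2*, the receptor that binds TGF-beta first, was at 1.46 CPM (0.798 to 2.45) in chromaffin-like cells, although these cells held *Tgfb1* and *Tgfb3*. It was at 180 (170 to 192) in endothelial-like, 161 (116 to 216) in fibroblast-like, 132 (89.0 to 188) in sustentacular-like, 94.8 (79.9 to 112) in immune-like and 24.5 (22.6 to 26.6) in cortex-like cells. *Bmpr2*, the type II receptor for BMPs, was found in all 6 classes, from 31.8 (23.5 to 42.2) in immune-like to 200 (188 to 212) in endothelial-like cells. The activin receptor gene *Acvr2a* was at 26.8 (23.6 to 30.3) in chromaffin-like and 23.8 (21.9 to 25.8) in cortex-like cells, so a receptor gene for activin was found in both parts of the gland.

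Of the 7 co-receptor genes, *Eng*, the endothelial co-receptor endoglin, passed at 557 CPM (538 to 577) in endothelial-like cells. *Tgfbr3*, which encodes betaglycan, a co-receptor for TGF-beta and for inhibin, was highest in cortex-like cells at 131 (127 to 136), with 40.4 (36.4 to 44.6) in chromaffin-like cells. None of the 8 SMAD genes passed. *Smad3*, which carries TGF-beta and activin signals, was at 0.209 (0.0253 to 0.753) in chromaffin-like and 8.09 (7.01 to 9.30) in cortex-like cells, whereas the BMP-regulated *Smad1* was at 94.0 (88.0 to 100) in chromaffin-like and 29.7 (27.6 to 31.9) in cortex-like cells. *Smad2*, the other SMAD of the TGF-beta and activin branch, was at 33.6 (30 to 37.4) in chromaffin-like cells, and *Smad4*, the partner shared by both branches, at 74.8 (69.4 to 80.4).

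Among 13 secreted antagonist genes, 10 had a UMI in at least 3 cells and 2 passed. Both did so in the sustentacular-like cells, where 1.69% of all genes passed and *Fst* passed too. With 10 genes tested, a single gene changes this share much. *Fstl3*, a relative of follistatin that also binds activin, was at 106 CPM (67.6 to 157) there and at 5.63 (4.23 to 7.35) in chromaffin-like cells. *Sostdc1*, a secreted antagonist of BMP and WNT signals, was at 769 (660 to 892) in sustentacular-like cells, 152 (137 to 167) in the cluster with both sets of markers and 4.27 (3.07 to 5.8) in chromaffin-like cells.

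Of the 14 genes of the latent complex and its activation, 13 had a UMI in at least 3 cells and 4 passed. Of these, 2 passed in the fibroblast-like class (0.769% of all genes), and 1 each in the sustentacular-like (1.69%) and cortex-like (1.09%) classes. *Itgb8*, an integrin subunit that pairs with the product of *Itgav* to release TGF-beta, was at 83.5 CPM (50.3 to 130) in sustentacular-like and 2.92 (1.94 to 4.22) in chromaffin-like cells. *Itgav* was also highest in sustentacular-like cells, at 141 (96.2 to 199), without passing the limit. *Pcsk5*, a proprotein convertase, was at 201 (195 to 206) in cortex-like cells, and at 295 (281 to 309) in the *Cyp11b1*-high and 269 (256 to 283) in the *Wnt4*-high cluster, the clusters with high *Inha*. *Lrrc32*, which tethers latent TGF-beta to the cell surface, and *Fbn1*, a matrix fibrillin, passed in fibroblast-like cells at 56.0 (31.4 to 92.4) and 187 (139 to 246), and *Lrrc32* was also at 23.7 (19.9 to 28.1) in endothelial-like cells. *Ltbp1* and *Ltbp4*, which bind the latent complex to the matrix, were at 106 (67.6 to 157) and 145 (99.9 to 204) in sustentacular-like cells and at 4.69 (3.42 to 6.28) and 1.36 (0.722 to 2.32) in chromaffin-like cells.

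Of 13 target genes, 4 passed, 1 each in the sustentacular-like (1.69% of all genes), cortex-like (1.09%), immune-like (1.90%) and fibroblast-like (0.769%) classes. *Pmepa1*, a TGF-beta target that limits the signal, was at 4058 CPM (3800 to 4328) in the sustentacular-like cells, the class with the highest *Tgfb2*, then at 770 (736 to 804) in the cluster with both sets of markers and 669 (574 to 774) in fibroblast-like cells. *Id2*, a target of BMP signals in many cells, was at 1393 (1378 to 1408) in cortex-like cells. *Tgfbi* passed in immune-like cells at 154 (135 to 175) and *Ccn2* in fibroblast-like cells at 310 (247 to 384). The other 9 did not pass in any class.

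The BMP target genes *Id1* and *Id3* did not pass the limit, but they ordered the non-cycling cortex-like clusters as *Bmp2* did. This order was not particular to them. *Inhbb* had it too, at 4.54, 1.39 and 0.764 CPM in the *Wnt4*-high, *Cyp11b1*-high and *Akr1c18*-high clusters. How many of all genes or of the other targets share the order was not counted, and a link between *Bmp2* and these targets was not tested. *Id1* was at 192 CPM (180 to 204) in the *Wnt4*-high, 82.4 (75.2 to 90.2) in the *Cyp11b1*-high and 19.2 (16.6 to 22.0) in the *Akr1c18*-high cluster. *Id3* was at 188 (177 to 200), 40.6 (35.6 to 46.2) and 10.8 (8.89 to 13.0) in the same clusters. *Id3* was at 759 (736 to 782) in endothelial-like cells, and without the cells that carried markers of another class it was at 107 (95.1 to 120) in the *Wnt4*-high cluster, while *Id1* was at 183 (167 to 200). In chromaffin-like cells *Id1* was at 142 (123 to 164) in the noradrenaline cluster, where *Bmp2* was higher, and at 70.8 (59.5 to 83.6) and 62.0 (55.3 to 69.3) in adrenaline clusters 1 and 2, but adrenaline cluster 3, which is led by immediate early genes such as *Fos*, had 217 (174 to 267).

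**Figure D5:**
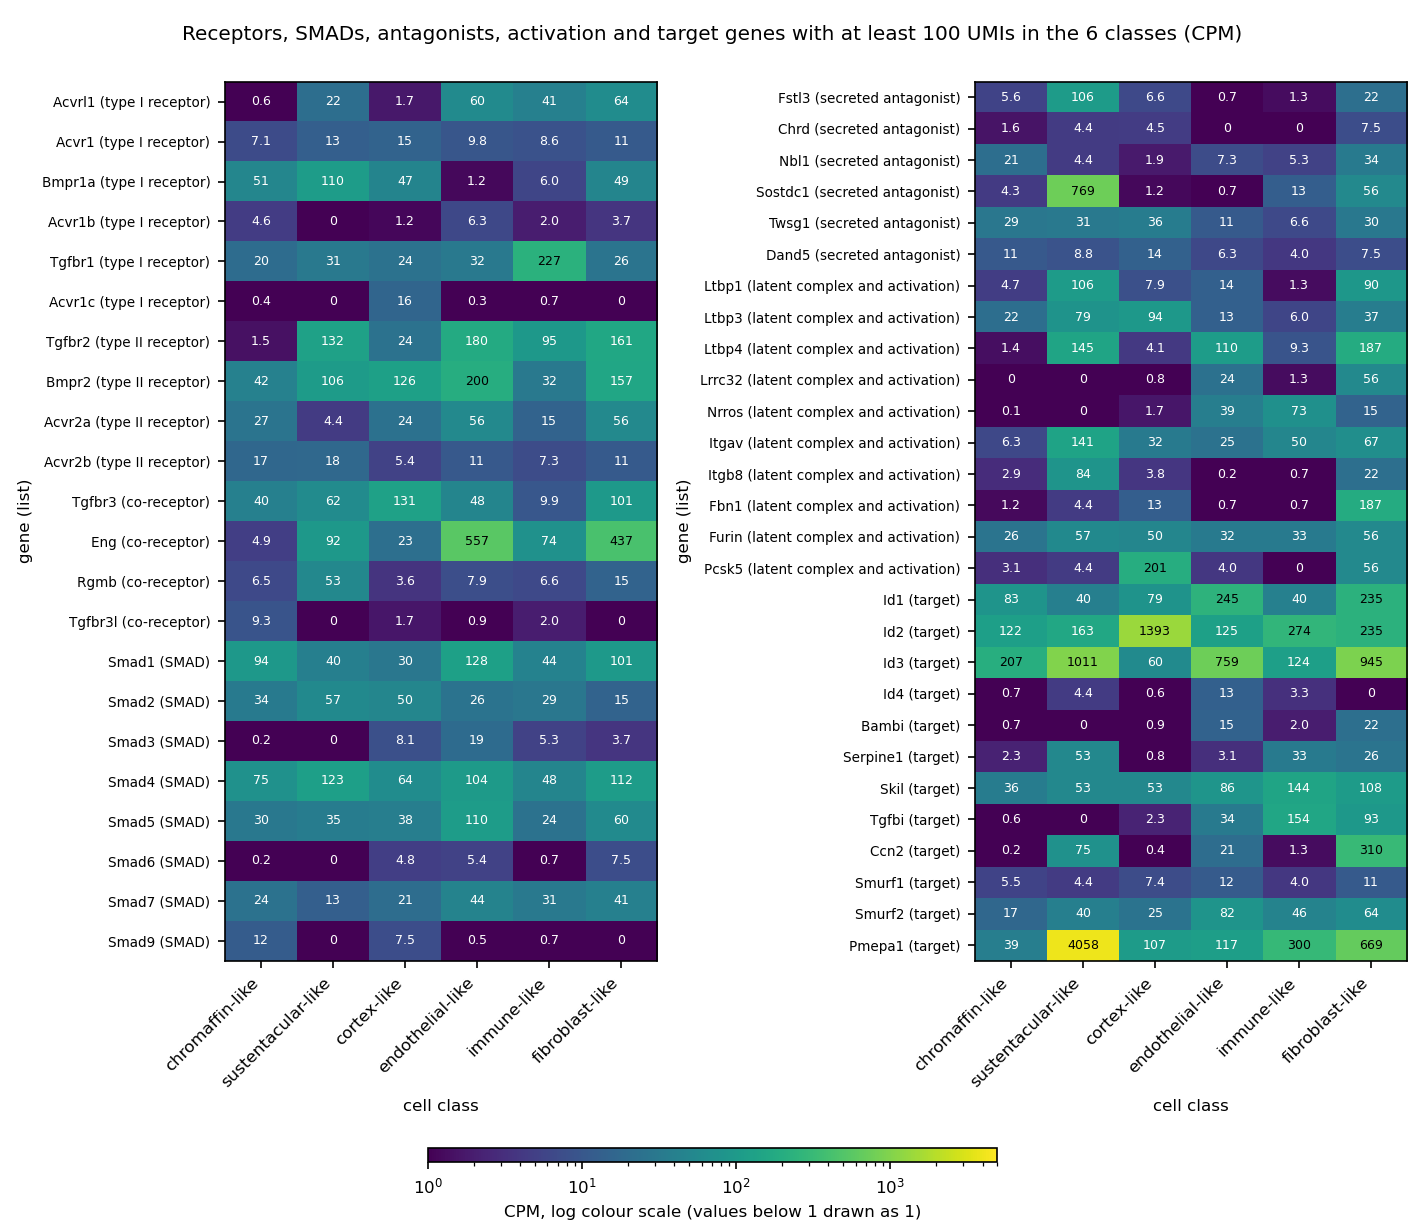
Level of 50 receptor, SMAD, antagonist, latent complex, activation and target genes (rows) in the 6 classes (columns) in CPM, printed in each cell and shown on a log colour scale. *Tgfbr2* is at 1.46 in chromaffin-like cells and 132 in sustentacular-like cells, and *Pmepa1* and *Sostdc1* are highest in the sustentacular-like column at 4058 and 769.

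The profiles of the 10 genes over the 16 clusters were also compared with those of all 11244 genes that had at least 200 UMIs, as Pearson correlations of log2 levels, for the 6 members with as many UMIs. The 16 clusters come from the same library, and each correlation is led by the clusters where the gene is high. *Inha* was most like *Fgf9* and *Klhdc8a* (0.959 and 0.95), *Bmp2* most like *Ephb4* and *St3gal4* (0.940 and 0.933), and *Tgfb1* most like *Lgals3bp* and *Maml2* (0.958 and 0.946). *Tgfb2* was most like *Col20a1* (0.992), *Tgfb3* most like *Map2* and *Alcam* (0.966 and 0.953), and *Fst* most like *Bche* and *Pcdh7* (0.974 and 0.949).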

How the data were processed

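The library was made with the 10x Genomics 3′ chemistry from 10000 viable cells. Per the labels and the submitters' processing notes, the authors used Cell Ranger 4.0.0 and mm10, and the deposited values are whole UMI counts per gene and barcode without normalization. Per the study's methods, Cell Ranger was used for the pre-processing that came before the count matrix. Cells with 500 to 5000 genes and at most 20% mitochondrial UMIs were kept, as in the study's methods, and grouped in R 4.3.3 by Seurat 5.3.0, with Matrix 1.6.5 and SeuratObject 5.2.0, from 2000 variable features, 10 principal components and a resolution of 0.4. The 10 genes and the pathway genes were left out of the variable features. A name needed 3 or more markers of its list, each present in 50% or more of the cells of a cluster (25% for sustentacular and cycling markers). Medullary clusters were clustered again until no cluster held markers of another cell type. Doublets were not removed. Scrublet (scanpy 1.11.5, expected rate 8%) called 677 of 10139 cells, 3.37% of the fibroblast-like, 0% of the sustentacular-like, 0.240% of the cells with chromaffin and sustentacular markers, 10.7% of the immune-like and 67.7% of the cells left out.

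Levels are summed UMIs per 1000000 (CPM) with exact Poisson intervals, ratios have exact conditional intervals and shares have Clopper-Pearson intervals, all at 95%. Quotients against markers have Poisson intervals of the gene's UMIs outside its highest class, with all other counts taken as exact. Amplified reads and cells of the same pool are not independent samples, so these cover counting error only. A count of 0 is given a limit of 3 counts. Shares were recomputed with cells thinned to 1000 UMIs, without the cells that had fewer. This left out 56 of 179 sustentacular-like, 282 of 2149 endothelial-like and 19 of 89 fibroblast-like cells. A thinned share thus has a smaller denominator and can exceed the unthinned one. Folds used a pseudocount of 10 CPM and the 18589 genes detected in 3 or more cells. Total UMIs were 9590812 in chromaffin-like, 227472 in sustentacular-like, 24595267 in cortex-like, 5728535 in endothelial-like, 1508792 in immune-like and 267636 in fibroblast-like cells, so 1 UMI weighs most in the sustentacular-like and fibroblast-like classes. Named genes were all 10 members, any gene of the pathway and marker lists, and for each member with at least 200 UMIs the 2 genes most like it, of which 1 is not reported here. Positions come from GENCODE for mm10, matched by Ensembl identifier.

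The members, lists and markers were chosen with earlier results of these data known. The fold script was tested on simulated data. Python 3.11.15, numpy 2.4.6, scipy 1.17.1, pandas 2.3.3 and matplotlib 3.10.9 were used. The alternatives changed the variable features, resolution, principal components, quality limits, doublets, the mean over cells, pseudocount, gene filter, fold limit, reference and detection limit. Leaving out cells with markers of another class was chosen after seeing the data. Other experiments of the study were not analysed here.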

Additional observations from a re-analysis of the deposited data

How the results depend on the processing

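No paired analysis was possible because there is 1 library. Under stricter quality control (1000 genes and 10% mitochondrial UMIs), which left no sustentacular-like or fibroblast-like cluster, 5 of the 10 members were highest in the same class as before, 1 passed the 4-fold limit instead of 5, and 8 pathway genes passed instead of 13. The cortex-like class still formed there, but *Inha* no longer passed in it. With a fold limit of 2, 8 members and 39 pairs of a pathway gene and a class passed. The share of all genes that passed rose as well, to between 3.68% and 5.89% by class. With a pseudocount of 1 CPM, 30 such pairs passed, where 2.08% to 5.88% of all genes did by class. With the highest other class as the reference, 6 pairs passed and *Inha* no longer did, where 0.00538% to 1.34% of all genes passed. At a resolution of 0.2 there was no fibroblast-like cluster and *Bmp4* no longer passed. *Bmp6* passed in fibroblast-like cells with the mean over cells, with a pseudocount of 1 CPM, with a fold limit of 2 and without the cells with markers of another class. The mean over cells and leaving out cells with markers of another class placed *Inhbb* highest in fibroblast-like cells. Of the ratios between subclasses, 8 were recomputed under the alternatives, and none of these 8 changed its direction where it could be computed. The other ratios in the text were not recomputed under all alternatives. *Fst* in *Akr1c18*-high cells over the *Cyp11b1*-high and *Wnt4*-high cells together was 12.7, and ranged from 4.59 under stricter quality control to 20.9 without Scrublet doublets. The same ratio for *Inha* in the other direction was 17.6 and ranged from 13.9 to 18.1. *Bmp2* in noradrenaline over adrenaline cells ranged from 15.0 to 20.6. *Tgfb2* in sustentacular-like cells over the noradrenaline and adrenaline cells together, without the cycling chromaffin-like cells, ranged from 224 to 520. The quotient of *Bmp2* in *Akr1c18*-high cells over the endothelial markers, 23.9, ranged from 3.23 at a resolution of 0.2 to 46.7 without cells with markers of another class. Depth limits *Inhba* and *Bmp6* most, and any gene in the sustentacular-like and fibroblast-like cells, in which 3 UMIs make 13.2 and 11.2 CPM.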

Other observations

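Of 24 other ligand genes of the superfamily, 9 had a UMI in at least 3 cells. *Gdf10*, a BMP-like ligand, was at 198 CPM (148 to 259) in fibroblast-like cells, from 53 UMIs, with 0 UMIs in chromaffin-like and sustentacular-like cells. It was found in 31 of the 89 fibroblast-like cells, of which 16 had at least 2 UMIs of endothelial markers and 19 had at least 2 of mural markers. *Bmp7* was at 28.5 (24.3 to 33.2) in the *Cyp11b1*-high and 14.5 (11.5 to 18.1) in the *Wnt4*-high cluster, and at 2.10 (1.32 to 3.18) in the *Akr1c18*-high cluster. In the medulla, *Bmp7* was at 12.2 (7.0 to 19.9) in noradrenaline cells and at 3.56 (1.43 to 7.34) and 1.40 (0.565 to 2.89) in adrenaline clusters 1 and 2. *Lefty1*, an antagonist of NODAL, was at 4.76 (3.93 to 5.70) in cortex-like and 3.84 (2.41 to 5.81) in endothelial-like cells. *Gdf11*, a relative of myostatin, was at 4.59 (3.33 to 6.16) in chromaffin-like and 0.935 (0.593 to 1.40) in cortex-like cells. All 23 UMIs of *Bmp5* in the classes were in cortex-like cells.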
